A study of Homo sapiens with 6 samples.

Results

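Translation initiation factors are the proteins that load the small ribosomal subunit with initiator tRNA, bring it to the capped end of an mRNA, scan to the start codon and release it for joining with the large subunit. Their genes were followed in SW480 cells, an established human line from a colon adenocarcinoma, with and without overexpression of TIPE (the gene TNFAIP8, a cytosolic protein induced by TNF). The members were the genes whose symbol begins with EIF1 to EIF6, without the EIF2AK kinases, symbols with a hyphen and symbols that end in P and digits. This gave 49 of the 60605 genes in the deposited table. The rule used symbols and no measured value, but it was set with earlier results of these data known. It also leaves out the 4E-binding proteins EIF4EBP1 to EIF4EBP3, which are given apart.

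Poly(A) RNA was sequenced from 3 libraries of cells infected with an empty lentiviral vector (vector) and 3 of cells infected with the same kind of virus carrying TIPE. Both groups grew in DMEM with fetal bovine serum and were held in puromycin at 2 µg/ml for at least 2 weeks, so infection and selection are common to both. The promoter that drives TIPE, and whether the lines are pools or clones, remain not given in the sources used here. Nothing in the labels ties the libraries of a group to separate cultures, so p-values reflect only how far these libraries differ, which may be technical.

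Total counts were 13957349 to 20345330 per library. TNFAIP8 was at 0.84 to 1.34 FPKM (counts scaled to exonic length and library total) in vector libraries and at 529.83 to 626.13 in TIPE libraries, so each library matched its label. All 7 colon epithelial markers were detected, with a summed level of 1246 to 1341 FPKM in vector and 1608 to 1664 in TIPE libraries, although CDH1 was at 34.89 to 37.37 in vector and 12.72 to 14.46 in TIPE libraries. Leukocyte PTPRC and CD3E and fibroblast COL1A2 were at 0 in every library, and the summed level of the fibroblast, leukocyte and endothelial lists stayed at or under 3.32 FPKM. Fibroblast LUM was detected, at 1.47 to 2.35 FPKM in vector and 1.73 to 2.66 in TIPE libraries. Leukocyte CD14 was at 0.33 to 0.74 FPKM over all libraries. Fibroblast PDGFRB was at 0.17 to 0.34 in vector and 0.51 to 0.56 in TIPE libraries. TIPE replicate 3 stood apart: its chi-square per gene against the other TIPE libraries was 7.95 and 8.40, while every other pair within a group lay between 2.35 and 3.89. Calls of initiation factors that change without TIPE replicate 3 are given both ways. For the lists of other translation genes only the counts are. In RNA from whole cultures, fewer cells with a transcript and less of it per cell cannot be told apart.

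As background, the process runs through a chain of complexes. eIF2 carries the initiator tRNA with GTP and is recharged by eIF2B, a step that stress kinases block by phosphorylating eIF2. The large eIF3 complex holds the small subunit and links it to eIF4F, which is made of the cap-binding eIF4E, the helicase eIF4A and the scaffold eIF4G, while eIF5, eIF5B and eIF6 act at start codon selection and at the joining of the large subunit. The mRNAs of ribosomal proteins and of several translation factors open with a C followed by further C or T bases, a feature called a terminal oligopyrimidine (TOP) start, through which mTORC1 and the RNA-binding protein LARP1 control their translation.

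Because TOP mRNAs include initiation factors, the bases around the annotated transcription start were read from RefSeq (GRCh38.p14). Of the 49 members, 42 had an entry in the RefSeq promoter table, and EIF2S2, EIF3A, EIF3CL, EIF3E, EIF3G, EIF3H and EIF3L had none. A start was counted when its first base was C and at least 4 more C or T bases followed on the transcribed strand. This rule was chosen after the fold changes were known, so it is used only to describe. It was met by 10 of the 42 members with an entry (23.8%), against 5.14% of the 27305 genes in that table, which include genes not tested here. Among tested genes with an entry, 725 met it and 8915 did not, beside 10 and 29 of the tested members. Each line below gives 30 bases before and 30 bases from the annotated start of these 10 genes in the direction of transcription, with the opening run of C and T in capitals.
EIF3D, chr22:36529137-36529196, minus strand: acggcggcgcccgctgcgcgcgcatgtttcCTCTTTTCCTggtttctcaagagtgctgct
EIF3F, chr11:7987307-7987366, plus strand: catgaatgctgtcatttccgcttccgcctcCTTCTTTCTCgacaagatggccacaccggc
EIF3K, chr19:38619158-38619217, plus strand: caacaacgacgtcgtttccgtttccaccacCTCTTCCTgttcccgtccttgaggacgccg
EIF3M, chr11:32583801-32583860, plus strand: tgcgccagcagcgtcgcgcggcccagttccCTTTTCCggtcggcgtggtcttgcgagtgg
EIF4B, chr12:53006426-53006485, plus strand: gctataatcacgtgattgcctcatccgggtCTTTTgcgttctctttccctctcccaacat
EIF2S3, chrX:24054926-24054985, plus strand: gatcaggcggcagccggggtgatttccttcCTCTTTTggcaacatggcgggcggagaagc
EIF2S3B, chr12:10505860-10505919, plus strand: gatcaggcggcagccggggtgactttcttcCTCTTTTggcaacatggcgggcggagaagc
EIF2D, chr1:206612436-206612495, minus strand: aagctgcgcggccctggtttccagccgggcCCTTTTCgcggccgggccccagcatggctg
EIF2A, chr3:150546757-150546816, plus strand: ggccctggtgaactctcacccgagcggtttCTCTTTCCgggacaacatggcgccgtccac
EIF4A2, chr3:186783547-186783606, plus strand: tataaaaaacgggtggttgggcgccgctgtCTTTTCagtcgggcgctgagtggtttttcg

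Members without such a run included genes that rose and genes that fell in TIPE libraries. The annotated starts of EIF6 (2 entries), which had the largest rise, and of EIF5A2 and EIF3J, which fell, are shown as examples chosen after their values were seen.
EIF6, entry 1, chr20:35284688-35284747, minus strand: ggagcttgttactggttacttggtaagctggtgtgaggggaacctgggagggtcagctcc
EIF6, entry 2, chr20:35284743-35284802, minus strand: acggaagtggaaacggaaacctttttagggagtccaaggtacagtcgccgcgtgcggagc
EIF5A2, chr3:170908608-170908667, minus strand: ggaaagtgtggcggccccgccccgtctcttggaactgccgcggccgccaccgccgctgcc
EIF3J, chr15:44537117-44537176, plus strand: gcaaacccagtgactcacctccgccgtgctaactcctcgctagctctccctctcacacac

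Setting TIPE against vector libraries asks whether the genes of the initiation machinery moved together or unevenly. Of the 49 members, 46 had a mean of at least 0.5 FPKM and were tested. In TIPE libraries 24 rose and 5 fell, and 17 did not pass (edgeR's quasi-likelihood test, Benjamini-Hochberg adjusted p under 0.05 over all 14205 genes tested). Over all genes 20.9% rose and 20.7% fell (41.5% either way). The difference between these shares and the counts of members was not tested. The changes were small. The median log2 fold change (TIPE minus vector) was 0.15 over the 46 members and 0.00 over all genes, and no tested member moved by more than 0.57. The median size of a called change was 0.27 among the members and 0.35 among all called genes. The 3 TIPE libraries did not overlap the 3 vector libraries at 34 of 46 members, against 50.3% of all genes.

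**Figure D1:**
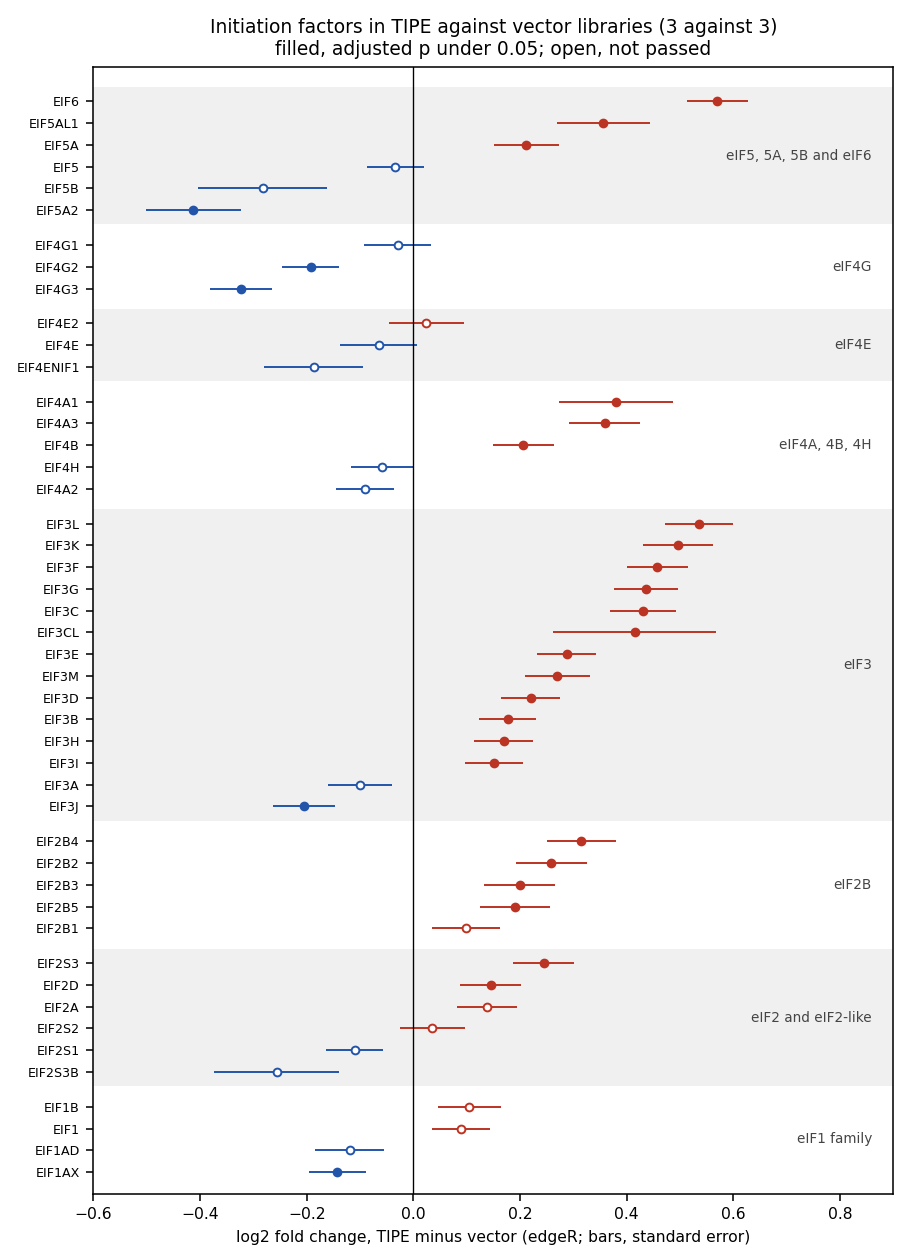
Log2 fold change of the 46 tested initiation factors (TIPE minus vector, horizontal axis) with the standard error as a bar, grouped by role; filled points passed the threshold. The points run from -0.41 (EIF5A2) to 0.57 (EIF6), and 12 of the 14 eIF3 genes are filled and above 0.

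The split into rises and falls depended on how libraries were scaled. The main scaling, TMM, sets the bulk of genes to no change. Scaled by total count alone, 15 members rose and 12 fell, with a background of 15.0% higher and 27.3% lower. Quantile normalization gave 18 and 10, with a background of 20.4% and 20.5%, and limma on log2(FPKM + 1) gave 13 and 8, with 13.5% and 22.8%. Fold changes over all genes also followed GC content, with a median log2 fold change of -0.21 in the lowest of 5 equal bins of GC content and 0.19 in the highest. After each library was corrected for its trend on GC content and exonic length, 22 members rose and 2 fell, with backgrounds of 17.5% and 16.8%. Without TIPE replicate 3, 24 rose and 10 fell, with backgrounds of 22.4% and 22.2%.

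**Figure D2:**
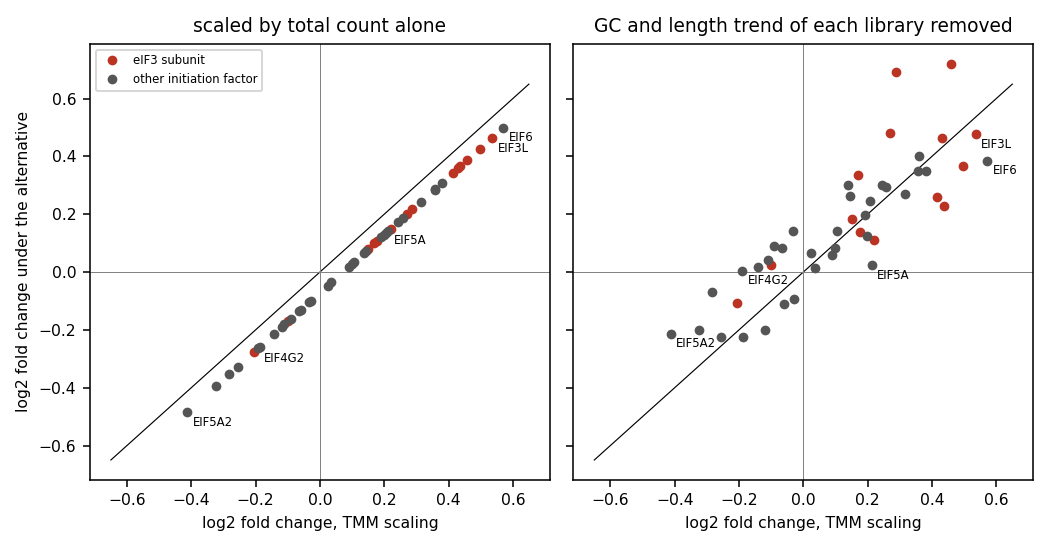
Log2 fold changes of the 46 tested members under TMM scaling (horizontal axis) against scaling by total count alone (left) and after correction for GC content and length (right); the line marks equal values. Total count scaling moves every member down by about the same amount, while the GC and length correction moves members by different amounts, with EIF4G2 at 0.0042 and EIF5A at 0.02.

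Most genes of the eIF3 complex rose. Of the 14, 12 passed toward higher, against 20.9% of all genes, while EIF3J fell and EIF3A did not pass. The median log2 fold change was 0.28. EIF3L and EIF3K, which encode a pair of neighbouring subunits at the edge of the complex, had the largest values. EIF3L (ENSG00000100129, hg38 chr22:37848868-37889407, plus strand) was at 56.64, 54.99 and 55.07 FPKM in vector replicates 1, 2 and 3 and at 78.41, 82.15 and 69.26 in TIPE replicates 1, 2 and 3. All TIPE libraries lay above all vector libraries, with TIPE replicate 3 the lowest of them. For EIF3L the log2 fold change was 0.54 (SE 0.06, edgeR adjusted p = 1.48e-06). EIF3K was at 38.07, 37.38 and 40.57 FPKM in vector libraries and at 47.15, 52.52 and 56.26 in TIPE libraries, with no overlap and a log2 fold change of 0.50.

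EIF3F, a subunit of the MPN domain class, was at 18.19, 17.75 and 19.14 FPKM in vector and at 23.58, 24.87 and 23.57 in TIPE libraries. EIF3F rose with a log2 fold change of 0.46 (SE 0.06, edgeR adjusted p = 2.76e-06), and 0.72 after correction for GC content and length. EIF3G, which carries an RNA recognition motif, was at 58.29, 56.98 and 64.50 FPKM in vector and at 75.43, 77.76 and 78.51 in TIPE libraries. It rose with a log2 fold change of 0.44, or 0.23 after correction for GC content and length. Its GC content of 60.3% was the highest among the members.

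EIF3D, a subunit that can itself bind the cap of some mRNAs, had the highest level per length of the complex. It was at 143.07, 146.53 and 152.86 FPKM in vector and at 161.64, 164.75 and 164.58 in TIPE libraries, without overlap. EIF3D rose with a log2 fold change of 0.22, a call that was lost under quantile normalization (0.08) and after correction for GC content and length (0.11), where the adjusted p over the alternatives ran from 0.00019 to 0.184. EIF3C, a core subunit, rose from 9.78 ± 0.502 to 12.5 ± 0.440 FPKM (SD over 3 libraries each), with a log2 fold change of 0.43. Its near-identical copy EIF3CL had 58 to 91 counts in vector and 71 to 113 in TIPE libraries, and reads of the pair may be split or lost between them. EIF3CL (0.41) kept its call without TIPE replicate 3 and lost it without any one of the other 5 libraries, with DESeq2, under total count scaling and after correction for GC content and length (log2 fold changes 0.26 to 0.48, adjusted p over the alternatives 0.022 to 0.204).

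The remaining risers of the complex were EIF3E (log2 fold change 0.29), EIF3M (0.27), EIF3B (0.18), EIF3H (0.17) and EIF3I (0.15). EIF3E and EIF3M passed under all 15 alternatives and were at 0.69 and 0.48 after correction for GC content and length and at 0.17 each under quantile normalization. EIF3B, a scaffold subunit, lost its call without vector replicate 2 (0.16) and without TIPE replicate 2 (0.17), and the call of EIF3H was lost without vector replicate 1 (0.16) and vector replicate 2 (0.16). EIF3I, a WD-repeat subunit, lost its call without vector replicate 1 (0.13), vector replicate 2 (0.14) and TIPE replicate 2 (0.14). All 3 also lost it under total count scaling (0.11, 0.10 and 0.08) and under quantile normalization, where EIF3B was at 0.07, EIF3H at 0.11 and EIF3I at 0.02. The call of EIF3B was lost after correction for GC content and length (0.14), where EIF3H was at 0.34. EIF3B lies on chromosome 7, where the median log2 fold change of 770 tested genes was -0.10, against 0.00 on all other chromosomes.

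EIF3J, a loosely bound subunit that helps position mRNA on the small subunit, went the other way. It was at 85.44, 86.70 and 82.84 FPKM in vector and at 67.08, 67.10 and 76.73 in TIPE libraries, with TIPE replicate 3 the closest to the vector group. The log2 fold change of EIF3J was -0.21 (SE 0.06, edgeR adjusted p = 0.00770), and -0.11 after correction for GC content and length, where the call was lost (adjusted p over the alternatives, 2.1e-05 to 0.0868). EIF3J overlaps SPG11 on the opposite strand, and whether counting used strand remains not given in the sources used here. Other members also overlap genes on the opposite strand, among them EIF2A with SERP1 and EIF2S2 with RALY. EIF3A, the largest scaffold of the complex, was at 112.45, 110.35 and 104.60 FPKM in vector and at 93.87, 91.10 and 106.13 in TIPE libraries, so the groups overlapped through TIPE replicate 3. The value of -0.10 for its log2 fold change did not pass (edgeR adjusted p = 0.189). EIF3A passed toward lower without TIPE replicate 3 (-0.16), under total count scaling (-0.17) and under quantile normalization (-0.28), and was at 0.02 after correction for GC content and length (adjusted p over the alternatives, 0.00097 to 0.779).

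**Figure D3:**
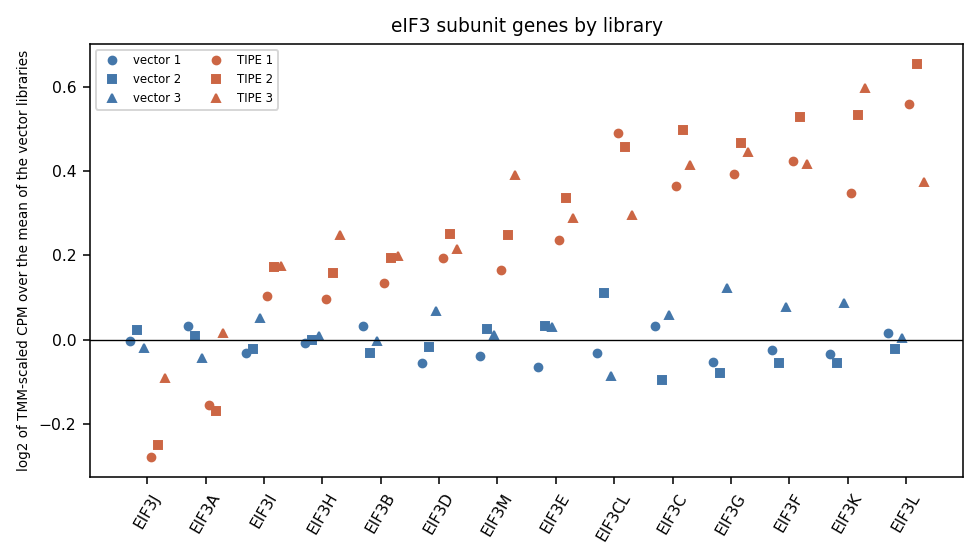
TMM-scaled counts of the 14 eIF3 genes in each library, as log2 of the value over the mean of the vector libraries (vertical axis), with the replicate shown by the symbol. TIPE libraries lie above vector libraries for 12 genes from EIF3I to EIF3L, below them for EIF3J, and overlap them for EIF3A through TIPE replicate 3.

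Among the genes of eIF2, the tRNA carrier, the subunits differed. EIF2S3, the GTP-binding gamma subunit, was at 136.78, 128.76 and 122.82 FPKM in vector and at 142.27, 140.26 and 155.76 in TIPE libraries. The groups did not overlap, and EIF2S3 rose with a log2 fold change of 0.24 (SE 0.06, edgeR adjusted p = 0.00179). The call was lost under quantile normalization (0.13) and in limma on FPKM (0.17), with an adjusted p of up to 0.0618 over the alternatives. EIF2S1, the alpha subunit that stress kinases phosphorylate, did not pass at a log2 fold change of -0.11 (edgeR adjusted p = 0.106). It did pass toward lower without TIPE replicate 3 (-0.13), under total count scaling (-0.18) and under quantile normalization (-0.16), but turned to 0.04 after correction for GC content and length. EIF2S2, the beta subunit and the most abundant of the group per length, was at 185.86, 191.76 and 186.78 FPKM in vector and at 168.95, 180.61 and 201.79 in TIPE libraries. These groups overlapped, and its log2 fold change was 0.04.

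EIF2S3B, a copy of EIF2S3 on chromosome 12 that can share its reads, was at 7.77, 7.96 and 7.90 FPKM in vector and at 7.95, 5.29 and 5.65 in TIPE libraries. It did not pass (log2 fold change -0.26), but did without TIPE replicate 1 (-0.45) and under total count scaling (-0.33; adjusted p over the alternatives, 0.0011 to 0.395). EIF2D and EIF2A encode single proteins that can bring tRNA to the ribosome outside the eIF2 route. EIF2D was at 10.27, 10.11 and 10.67 FPKM in vector and at 10.75, 10.63 and 11.33 in TIPE libraries, which overlap on this scale and not after TMM scaling. Its log2 fold change of 0.14 passed narrowly (edgeR adjusted p = 0.0494) and did not pass without any one of 5 libraries, with vector replicate 3 as the exception (0.12 to 0.16), or with DESeq2 (0.14; adjusted p over the alternatives, 0.0011 to 0.324). EIF2A, at 0.14, did not pass (edgeR adjusted p = 0.0507), but did without TIPE replicate 3 (0.14) and after correction for GC content and length (0.30, with EIF2D at 0.26).

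Of the 5 genes of eIF2B, the exchange factor that recharges eIF2, 4 rose, against 20.9% of all genes. EIF2B4, the delta subunit, was at 7.46, 7.62 and 7.67 FPKM in vector and at 9.13, 8.95 and 8.86 in TIPE libraries. These groups lay apart by more than their own range, and the log2 fold change was 0.31 (SE 0.06, edgeR adjusted p = 0.000535). EIF2B2, the beta subunit, was at 7.62, 7.57 and 8.17 FPKM in vector and at 8.92, 8.92 and 8.73 in TIPE libraries, without overlap (log2 fold change 0.26). Both passed under all 15 alternatives.

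EIF2B3, the gamma subunit, was at 13.68, 14.54 and 12.94 FPKM in vector and at 14.27, 15.22 and 15.61 in TIPE libraries, which overlap before TMM scaling. At a log2 fold change of 0.20 EIF2B3 lost its call without vector replicate 1 (0.19), vector replicate 3 (0.16) or TIPE replicate 2 (0.18). EIF2B5, the catalytic epsilon subunit, was at 9.12, 9.82 and 10.60 FPKM in vector and at 11.17, 10.52 and 10.42 in TIPE libraries, again with overlap before TMM scaling. At 0.19, EIF2B5 lost its call without vector replicate 1 (0.13), vector replicate 2 (0.18), TIPE replicate 1 (0.16) or TIPE replicate 2 (0.19). Neither passed under total count scaling (0.13 and 0.12), nor EIF2B3 after correction for GC content and length (0.13). EIF2B1, the alpha subunit through which the complex senses phosphorylated eIF2, was at 22.29, 23.36 and 21.20 FPKM in vector and at 21.24, 22.21 and 24.87 in TIPE libraries and overlapped between groups.

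The factors around the cap differed both between and within families. Among the eIF4A helicases and their partners, EIF4A3, EIF4B and EIF4A1 rose, and EIF4A2 and EIF4H did not pass. EIF4A3, the helicase of the exon junction complex, was at 13.69, 11.70 and 12.47 FPKM in vector and at 14.79, 14.78 and 16.66 in TIPE libraries. The groups did not overlap, and the log2 fold change was 0.36 (SE 0.07, edgeR adjusted p = 0.000200). EIF4B, which stimulates the helicase, was the most abundant of this group, at 212.98, 199.46 and 193.00 FPKM in vector and at 213.67, 225.27 and 226.22 in TIPE libraries. TIPE replicate 1 lay only just above vector replicate 1. Its log2 fold change of 0.21 (edgeR adjusted p = 0.00586) was -0.05 under quantile normalization and 0.14 under total count scaling, and the call was lost in both (adjusted p over the alternatives, 0.00061 to 0.404).

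EIF4A1 was at 2.82, 3.19 and 2.37 FPKM in vector and at 3.87, 3.38 and 3.17 in TIPE libraries, which overlap before TMM scaling. EIF4A1 rose with a log2 fold change of 0.38 but missed the threshold without vector replicate 3 (0.28; adjusted p over the alternatives, 0.00059 to 0.0906). The readthrough gene SENP3-EIF4A1 covers most of EIF4A1 on the same strand, and 13 rows of the table are EIF4A1 pseudogenes, so the level of EIF4A1 is uncertain. EIF4A2, the paralog, was at 95.88, 95.60 and 90.19 FPKM in vector and at 82.47, 85.57 and 83.78 in TIPE libraries. These groups did not overlap, but the log2 fold change of -0.09 did not pass (edgeR adjusted p = 0.190). It did pass under total count scaling (-0.16) and quantile normalization (-0.23), and turned to 0.09 after correction for GC content and length. EIF4H, another partner of the helicase and a gene of chromosome 7, had a log2 fold change of -0.06 and overlapping groups.

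No tested member of the eIF4E group passed. EIF4E2, which encodes a cap-binding repressor of translation and was the highest of the group per length, was at 7.54, 6.74 and 7.66 FPKM in vector and at 7.06, 6.76 and 7.42 in TIPE libraries. The cap-binding EIF4E itself was at 6.60, 6.37 and 6.76 FPKM in vector and at 5.99, 5.82 and 6.14 in TIPE libraries, below vector in each on this scale, with a log2 fold change of -0.06 that did not pass (edgeR adjusted p = 0.502). EIF4ENIF1, a transporter and silencer of EIF4E, had a log2 fold change of -0.19, which passed toward lower only without TIPE replicate 3 (-0.25) and under total count scaling (-0.26).

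The other 3 members lay under the expression filter: EIF4E1B with 0 counts in every library, EIF1AY, which is not described further, and EIF4E3. EIF4E3 (ENSG00000163412, hg38 chr3:71675414-71754773, minus strand), a divergent cap-binding paralog, had 34, 55 and 28 counts in vector and 19, 20 and 10 in TIPE libraries, with no overlap after scaling. In edgeR without the filter, where 9.93% of 29836 genes fell, it fell with a log2 fold change of -1.21 (SE 0.28, edgeR adjusted p = 0.000223). The size was -1.05 to -1.34 when any one library was left out, and the call was lost only in limma on log2(FPKM + 0.1) (-0.73). In limma on log2(FPKM + 1), where the pseudocount exceeds the level of this gene, it was -0.16 (adjusted p over the alternatives, 7.9e-05 to 0.101).

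Of 3 eIF4G scaffolds, EIF4G3 and EIF4G2 fell, against 20.7% of all genes. EIF4G3 (ENSG00000075151, hg38 chr1:20806292-21176888, minus strand) was at 13.74, 13.78 and 12.79 FPKM in vector and at 10.42, 9.50 and 10.83 in TIPE libraries, without overlap. It fell by 0.32 on the log2 scale (SE 0.06, edgeR adjusted p = 0.000157), and it was the only tested member that fell under all 15 alternatives, with -0.20 after correction for GC content and length. EIF4G2, a shortened relative that lacks the site for EIF4E, was the most abundant of the family at 170.74, 171.10 and 162.97 FPKM in vector and at 139.71, 140.27 and 140.85 in TIPE libraries. The 3 TIPE values were nearly equal and lay apart from the vector values. EIF4G2 had a log2 fold change of -0.19 (edgeR adjusted p = 0.00646). It was at 0.0042 after correction for GC content and length, where the call was lost, and -0.47 under quantile normalization (adjusted p over the alternatives, 8.8e-06 to 0.959). EIF4G2 has a GC content of 40.5% and overlaps CTR9 on the opposite strand. EIF4G1, the main scaffold, was at 83.51, 80.58 and 81.82 FPKM in vector and at 80.70, 79.58 and 69.13 in TIPE libraries, with TIPE replicate 3 alone far below the rest. Its log2 fold change was -0.03, or 0.04 without TIPE replicate 3, and under quantile normalization EIF4G1 passed toward lower (-0.21).

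Among the factors of subunit joining, EIF6 had the largest rise of all tested members. EIF6 (ENSG00000242372, hg38 chr20:35278907-35284985, minus strand) binds the large subunit, keeps it from joining early and takes part in its assembly. It was at 136.70, 134.20 and 146.47 FPKM in vector and at 198.26, 197.87 and 193.89 in TIPE libraries. The TIPE values lay close together and far above the vector values. The log2 fold change was 0.57 (SE 0.06, edgeR adjusted p = 1.80e-07), and 0.39 to 0.61 over the 15 alternatives, the lowest after correction for GC content and length.

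EIF5A, which carries the modified residue hypusine and helps ribosomes past difficult peptide bonds, was the most abundant member per length. It was at 391.01, 387.46 and 414.61 FPKM in vector and at 422.21, 419.53 and 475.67 in TIPE libraries, without overlap. Its log2 fold change of 0.21 (edgeR adjusted p = 0.00732) lost its call without vector replicate 1 (0.19) or vector replicate 2 (0.19), under total count scaling (0.14), under quantile normalization (0.02) and after correction for GC content and length (0.02) (adjusted p over the alternatives, 0.0016 to 0.825). Its paralog EIF5A2 (ENSG00000163577, hg38 chr3:170888418-170908644, minus strand) was at 3.70, 4.17 and 4.19 FPKM in vector and at 2.99, 2.87 and 2.77 in TIPE libraries and fell, the largest fall of a tested member. The log2 fold change was -0.41 (SE 0.09, edgeR adjusted p = 0.000829), and -0.21 after correction for GC content and length, where the call was lost (adjusted p over the alternatives, 0.00019 to 0.0776). EIF5A2 has the lowest GC content of the tested members, 34.3%. EIF5AL1, an intronless copy of EIF5A that can share its reads, was at 4.47, 4.08 and 4.01 FPKM in vector and at 5.20, 4.92 and 5.21 in TIPE libraries and rose with a log2 fold change of 0.36.

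The value of EIF5B (ENSG00000158417, hg38 chr2:99337371-99401326, plus strand), the GTPase of subunit joining, turned on 1 library. EIF5B was at 28.14, 29.04 and 25.62 FPKM in vector libraries, at 18.20 and 17.34 in TIPE replicates 1 and 2, and at 29.65 in TIPE replicate 3, above every vector library. In the main fit its log2 fold change of -0.28 did not pass (SE 0.12, edgeR adjusted p = 0.0675). Without TIPE replicate 3 it was -0.56 and passed. With all libraries it passed under total count scaling (-0.35), with replicate number as a block (-0.32) and without the expression filter (-0.28). It was -0.17 without TIPE replicate 1 and -0.15 without TIPE replicate 2 (adjusted p over the alternatives, 8.7e-12 to 0.701). EIF5, which triggers GTP hydrolysis by eIF2, had a log2 fold change of -0.03, and rose after correction for GC content and length (0.14).

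**Figure D4:**
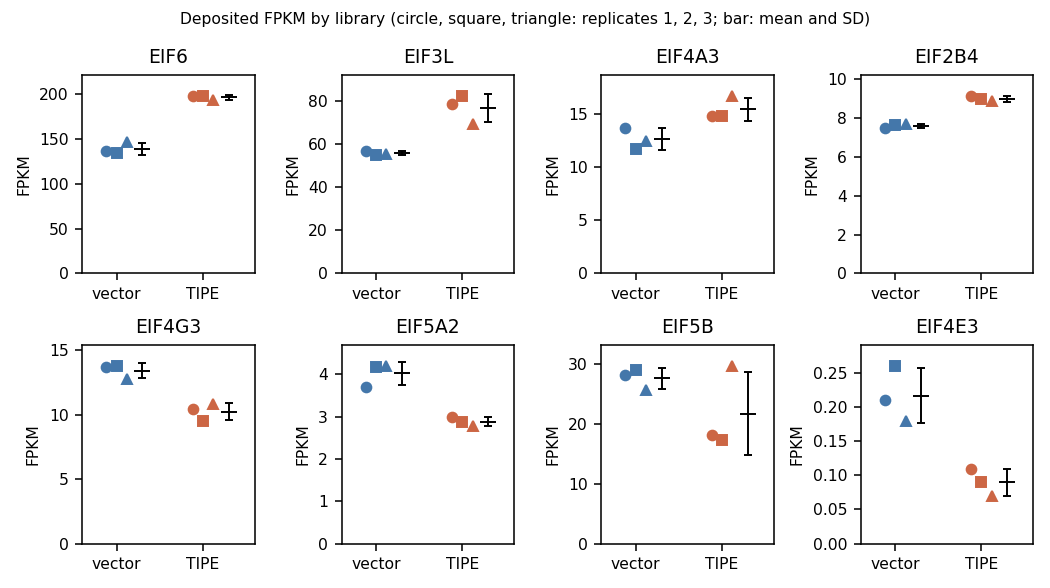
Deposited FPKM of 8 initiation factors in each library (vertical axes from 0), with the mean and SD of each group beside the points (n = 3 libraries). EIF6, EIF3L, EIF4A3 and EIF2B4 are higher in all TIPE libraries, EIF4G3, EIF5A2 and EIF4E3 lower, and EIF5B is lower in TIPE replicates 1 and 2 and at 29.65 in TIPE replicate 3.

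Of the 4 tested genes of the eIF1 family, which guard start codon choice, 1 passed, against 41.5% of all genes. EIF1AX, which encodes eIF1A, was at 64.75, 67.63 and 64.31 FPKM in vector and at 57.21, 56.39 and 56.15 in TIPE libraries. The groups did not overlap, and EIF1AX fell by 0.14 on the log2 scale (edgeR adjusted p = 0.0371). That call did not hold without vector replicate 1 (-0.16), vector replicate 2 (-0.13), TIPE replicate 1 (-0.15) and TIPE replicate 2 (-0.15), and the value was 0.02 after correction for GC content and length (adjusted p over the alternatives, 0.0025 to 0.818). EIF1, the most abundant of the family, was at 218.53, 207.36 and 214.90 FPKM in vector and at 219.16, 209.28 and 221.05 in TIPE libraries. These ranges overlapped, and its log2 fold change of 0.09 did not pass, while under quantile normalization EIF1 passed toward lower (-0.12; adjusted p over the alternatives, 0.045 to 0.798). EIF1B and EIF1AD had log2 fold changes of 0.10 and -0.12, and EIF1AD passed toward lower without TIPE replicate 3 (-0.16), under total count scaling (-0.19) and after correction for GC content and length (-0.20), where EIF1B passed toward higher (0.14).

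A single scaling factor per library leaves the ratio of a pair of paralogs as it is, and 5 pairs were compared with a two-sided exact permutation test, 3 libraries against 3, whose smallest possible p is 0.1. The log2 ratio of EIF5A to EIF5A2 was 6.72, 6.54 and 6.63 in vector and 7.14, 7.19 and 7.42 in TIPE libraries, a difference of 0.62 in the means (exact p = 0.1, adjusted over the 5 pairs 0.167). That of EIF4A1 to EIF4A2 differed by 0.48 (exact p = 0.1), with the uncertain level of EIF4A1 in mind. The log2 ratio of EIF4G1 to EIF4G3 was 2.60, 2.55 and 2.68 in vector and 2.95, 3.07 and 2.67 in TIPE libraries. TIPE replicate 3 lay among the vector libraries (exact p = 0.2), and the difference of 0.29 was 0.40 without it. The ratio of EIF4E to EIF4E2 differed by -0.09 (exact p = 0.1) and that of EIF1 to EIF1B by -0.02 (exact p = 0.8). Corrections that act gene by gene did move these differences. After correction for GC content and length, that of EIF5A to EIF5A2 (57.3% and 34.3% GC) was 0.24, that of EIF4A1 to EIF4A2 0.26 and that of EIF4G1 to EIF4G3 0.11.

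Read against the annotated starts printed above, 7 of the 10 members with a TOP-like start rose (EIF2D, EIF2S3, EIF3D, EIF3F, EIF3K, EIF3M and EIF4B) and none fell. The other 3 were EIF2A (0.14), EIF4A2 (-0.09) and EIF2S3B (-0.26), none of which passed. Over all 725 tested genes with such a start, 47 of them ribosomal protein genes, 33.7% rose and 17.8% fell. Of the 29 tested members with an entry and no such start, 12 rose and 5 fell, against 22.7% and 24.1% of the 8915 other tested genes with an entry. EIF6, EIF4A3 and EIF3C are among the 12. A match is a description of the annotated start and does not show which start these cells used.

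Genes around the initiation factors were taken from 6 short lists (44 genes, 41 tested), where 13 rose and 12 fell, against 20.9% and 20.7% of all genes. After correction for GC content and length 17 rose and 10 fell, with backgrounds of 17.5% and 16.8%. Without TIPE replicate 3, 15 rose and 13 fell, with backgrounds of 22.4% and 22.2%. The values of single list genes below are from the main fit alone. All 5 that moved among the 6 genes for eIF2 kinases and phosphatase subunits were lower. EIF2AK2, the kinase PKR activated by double-stranded RNA, fell from 11.7 ± 0.692 to 6.76 ± 0.450 FPKM (SD, n = 3 each), with a log2 fold change of -0.72 (SE 0.06, edgeR adjusted p = 3.03e-08). EIF2AK3 (the ER stress kinase PERK), EIF2AK4 (GCN2, activated by amino acid shortage) and PPP1R15B, a phosphatase subunit that reverses these kinases, had log2 fold changes of -0.40, -0.25 and -0.29. EIF2AK1 also fell (-0.15), and PPP1R15A did not pass (0.07).

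The 4E-binding proteins EIF4EBP1 (65.5% GC) and EIF4EBP2 (43.7% GC), which hold EIF4E away from EIF4G, moved in opposite directions. Whether this follows the trend on GC content was not tested. EIF4EBP1 rose from 263 ± 12.5 to 299 ± 15.1 FPKM (log2 fold change 0.25), while EIF4EBP2 fell from 34.1 ± 0.572 to 24.8 ± 1.99 FPKM (-0.39), with edgeR adjusted p = 0.00148 and 3.49e-05. Of 8 tested elongation factor genes 5 rose and 1 fell (EEF1A2, -0.17), against 20.9% and 20.7% of all genes. EEF1B2, EEF1D, EEF2 and EEF1A1 had log2 fold changes of 0.80, 0.67, 0.73 and 0.62, each above the highest value of any initiation factor. EEF1A1, EEF1B2 and EEF2 also have a TOP-like annotated start, and no start was read for EEF1D.

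Of 19 initiation regulators and helper factors, 5 rose and 4 fell, close to the shares of 20.9% and 20.7% over all genes. RPS6KB1, the S6 kinase, fell with a log2 fold change of -0.49, and LARP1, which binds TOP mRNAs, with one of -0.26. BZW2 and PABPC4, an eIF5-like regulator and a poly(A)-binding protein, rose with 0.31 and 0.28. DHPS, the first enzyme of the hypusine modification of EIF5A, rose with 0.46, and DOHH, the second, did not pass (0.11). Of 4 tested termination and recycling factors, PELO rose (0.26) and HBS1L, its partner in rescuing stalled ribosomes, fell (-0.19).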

How the data were processed

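Per the submitters' processing notes, reads were aligned with HISAT2 2.0.1 to hg38. The counting tool, annotation release and use of strand remain not given in the sources used here. The authors deposited 1 table with whole-number counts, taken as raw, and FPKM per gene and library. Every deposited FPKM matched the count divided by exonic length and library total within 0.005. Genes with a mean of at least 0.5 FPKM were tested with edgeR 4.0.16 (R 4.3.3; TMM factors 0.9617 to 1.033, group alone in the model), two-sided, with Benjamini-Hochberg adjustment. Standard errors are the fold change over the square root of F. The fit was tested on simulated data. Alternatives used limma 3.58.1, DESeq2 1.42.0, other scalings and filters, a GC and length correction (GENCODE release 29) and single libraries left out. FPKM carries no TMM factor, so its ratios run lower than fitted changes. Without that factor the median log2 fold change was -0.072 over all genes and 0.077 over the members. With it, the members' median was 0.148. A count of 0 allows up to 3 counts, 0.147 to 0.215 CPM, for counting error only.

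The members and lists were chosen with earlier results of these data known. Within each role group the up to 4 called members with the smallest adjusted p and the most abundant one are given by library. From each further list up to 4 called genes are named, with EIF2AK1, EEF1A2 and genes that did not pass added after their values were seen; the same holds for library values of members that did not pass.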

Additional observations from a re-analysis of the deposited data

How the results depend on the processing

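Of 29 called initiation factors, 12 that rose and 1 that fell passed under all 15 alternatives. The same count was not taken over all genes, so it has no background to be read against. Against 24 higher and 5 lower, total count scaling gave 15 and 12, limma on log2(FPKM + 1) gave 13 and 8, and limma on log2(FPKM + 0.1) gave 14 and 8. The background of limma on log2(FPKM + 0.1) was 13.4% higher and 22.9% lower. Quantile normalization gave 10 lower and removal of the GC and length trend 2 lower. The members' median of 0.148 was 0.077, 0.074, 0.077 and 0.075 under total count scaling, limma with a pseudocount of 1, limma with 0.1 and quantile normalization. In the same order, the median over all genes was -0.072, -0.055, -0.07 and -0.003. The other translation genes that rose went from 13 to 8 under total count scaling and to 8 in both limma fits, and all genes that rose from 2967 to 1912 and 1902 in the limma fits. The share of all genes that rose was 20.9% in the main fit, 15.0% under total count scaling and 13.5% and 13.4% in the limma fits. Leaving out 1 library gave 17 to 24 members higher and 4 to 10 lower, with backgrounds of 15.5% to 22.4% and 16.1% to 22.2%. The cause of these shifts was not tested.

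Signs turned after correction for GC content and length for EIF1AX (0.0183), EIF2S1 (0.0433), EIF3A (0.0244), EIF4A2 (0.0891), EIF4E (0.0828), EIF4G2 (0.0042) and EIF5 (0.1404, a call toward higher). Under quantile normalization they turned for EIF1 (-0.1189, a call toward lower), EIF2S2 (-0.1049) and EIF4B (-0.0548). Under total count scaling, limma with 1 and limma with 0.1, EIF2S2 was at -0.0347, -0.0373 and -0.0375, and EIF4E2 at -0.0465, -0.0401 and -0.0449. With 1 library left out EIF2S2 ran from -0.0284 to 0.0958, EIF4E2 from -0.0412 to 0.0626 and EIF4G1 from -0.0696 to 0.0444.

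Same-numbered libraries did not deviate together (correlations -0.035 to 0.003). With replicate number as a block, 22 members rose and 5 fell, with 19.7% of all genes called each way. Total count scaling moved the median of all genes by -0.072, and quantile normalization moved single members by more (EIF4G2 from -0.19 to -0.47). As alternatives chosen after seeing the data, the paralog differences were recomputed after correction for GC content and length (EIF4A1 to EIF4A2 0.259, EIF4G1 to EIF4G3 0.109, EIF4E to EIF4E2 0.017, EIF5A to EIF5A2 0.237, EIF1 to EIF1B -0.081) and under quantile normalization (EIF4G1 to EIF4G3 0.104, EIF5A to EIF5A2 0.404, EIF1 to EIF1B -0.242).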

Other observations

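EIF4A1 was measured at 2.79 ± 0.411 FPKM in vector libraries and its paralog EIF4A2 at 93.9 ± 3.21 (SD, n = 3 each). The 13 rows of EIF4A1 pseudogenes held a mean of 158.7 counts per vector library, beside 241.7 in EIF4A1 itself, and the readthrough gene SENP3-EIF4A1 held 26.3. For EIF4E the 5 pseudogene rows held 148.3 counts beside 535 in the gene. By contrast the 5 pseudogene rows of EIF4A2 held 2.333 counts beside 9473. EIF3E has an exonic length of 37761 bases in the table, so its level of 12.2 FPKM rests on 6750 to 9258 counts per vector library. Levels of these genes per length therefore depend on the annotation and on how reads with several matches were counted, which was not tested.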
